A study of Saccharomyces cerevisiae with 42 samples.

Results

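The genes described here are tied to phosphate uptake, phosphate release, polyphosphate storage or phosphate shortage in the budding yeast Saccharomyces cerevisiae. They are the 10 genes PHO84, PHO89, SPL2, PHM6, PHO5, PHO3, PHM8, VTC1, VTC3 and VTC4, out of 5656 genes with a probe set of their own. Members were taken by gene symbol from the platform annotation, with the probe set of highest mean over the 42 arrays used for each gene. All 10 were measured, 9 of them by 1 probe set and VTC4 by 2.

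The study measured total RNA on 42 Affymetrix arrays before and during a heat stress at 39 C, with cells in log phase in YPD, a rich medium. Strain dpl1D carries dpl1:KanMX and so lacks the enzyme that cleaves phosphorylated sphingoid bases. Strain lcb4D/lcb5D carries lcb4::KanMX and lcb5::KanMX and so lacks both kinases that phosphorylate sphingoid bases. Strain JK939a is the parental strain. All of them share the MAT α mating type and the alleles leu2-3 112, ura3-52, trp1 and his4, together with rme1 and HMLa. Samples were taken before heat and at 5, 10, 15, 20, 25 and 30 min of heat, with 2 arrays for each strain and time. The labels do not say whether replicates came from separate cultures, so the p-values measure the spread between these arrays, which may be technical, and they do not say how many clones of each strain were grown.

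In yeast, phosphate shortage lets the transcription factor Pho4 enter the nucleus, because the inhibitor Pho81 then restrains the cyclin-kinase pair Pho80-Pho85. Pho4 switches on genes for phosphate transporters, secreted acid phosphatases and the VTC complex, which builds polyphosphate chains and moves them into the vacuole. Polyphosphate is the cell's main phosphate store. The arrays measured transcripts in whole cultures, so fewer cells expressing a gene and less RNA per cell cannot be told apart, and neither phosphate nor polyphosphate was measured here.

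Values are RMA signals on a log2 scale, so a difference of 1 is a 2-fold change. Array medians lay between 5.61 and 5.80, and the 2 arrays of a group correlated with r between 0.942 and 0.980 across probe sets. DPL1 read 2.58 to 3.63 in dpl1D, against 8.72 to 9.81 in JK939a. LCB5 read 2.31 to 3.48 in lcb4D/lcb5D, against 4.98 to 7.66 in JK939a, and LCB4 read 2.53 to 3.68 in lcb4D/lcb5D, against 4.49 to 5.47 in JK939a. The mating markers stood as the labels have them, with the alpha factor gene MF(ALPHA)1 at 7.74 to 12.4 and the a-cell receptor gene STE2 at 2.54 to 4.14 over all arrays. One array stood apart. A probe set with no listed gene read at least 11.8 on the 28 arrays of the deletion strains and at most 4.27 on 13 parental arrays, but 8.15 on replicate 1 of JK939a before heat. The main JK939a results are also given without that array. Arrays numbered 2 also differed from arrays numbered 1 in controls of RNA make-up, with a mean 18S control signal of 7.05 ± 2.70 on the 21 arrays numbered 2 and 13.1 ± 0.154 on the 21 numbered 1 (SD), and a mean difference between 3' and 5' SRB4 probe sets of 1.97 ± 0.54 against 0.52 ± 0.27.

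Heat lowered 9 of the 10 genes and raised PHM8, in each of the 3 strains. The test compared the mean of the 6 heated times with the time before heat (limma, Benjamini-Hochberg adjustment over all 5656 genes, calls at an adjusted p under 0.05). All 10 members passed it in dpl1D, in lcb4D/lcb5D and in JK939a, where 47.2%, 44.3% and 46.3% of all genes passed in either direction, 26.6%, 25.2% and 24.5% passed as lower, and 20.6%, 19.1% and 21.8% as higher. The median change of the members was -1.60 in dpl1D, -1.54 in lcb4D/lcb5D and -1.75 in JK939a, beside -0.05, -0.02 and -0.02 over all genes. Without replicate 1 of JK939a before heat, all 10 members still passed in JK939a. Without replicate 2 of JK939a before heat the count there was 6. Centring the arrays on 18 hybridisation controls, which widened the standard errors to 0.57, left 5 members in dpl1D, 4 in lcb4D/lcb5D and 6 in JK939a, with every member's direction the same as before under each scaling tried.

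**Figure D1:**
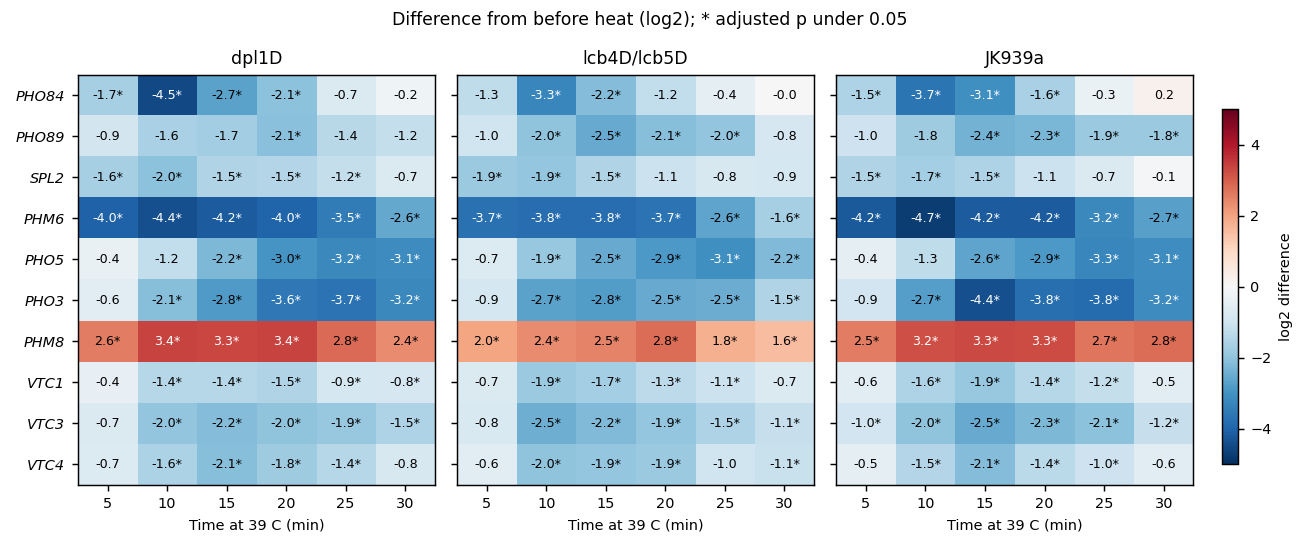
Difference of each heated time from before heat (log2, colour scale and printed values) for the 10 genes (rows) at 5 to 30 min (columns) in dpl1D, lcb4D/lcb5D and JK939a; asterisks mark an adjusted p under 0.05. PHM8 is higher at all 6 times in all 3 strains, and PHM6 is lower at all 6, while PHO84 is lowest at 10 min and near its starting level at 30 min.

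The map of differences by time shows that the members did not move in step. At 5 min, 4 members were called in dpl1D, 3 in lcb4D/lcb5D and 5 in JK939a, beside 14.8%, 16.2% and 14.2% of all genes. SPL2 and PHM6 were lower and PHM8 was higher at 5 min in all 3 strains. PHO84 was lower at 5 min in dpl1D and JK939a, and VTC3 in JK939a. With the replicate number as a block the count at 5 min in lcb4D/lcb5D was 5 across strains and 6 within strains. At 5 min the count was 2 in dpl1D without any 1 of its arrays before heat or at 5 min, and in JK939a it was 3 without replicate 1 before heat and 2 without replicate 2 before heat or replicate 1 at 5 min. At 10 min the counts were 8, 10 and 8 members in dpl1D, lcb4D/lcb5D and JK939a (35.3%, 38.7% and 33.5% of all genes), and at 15 min they were 9, 10 and 10 (40.5%, 39.7% and 42.5%). At 20 min they were 10, 8 and 9 members (44.4%, 39.7% and 42.9%), and at 25 min 8, 7 and 8 (42%, 35.3% and 39%). At 30 min they were 6, 6 and 6 (37.8%, 26.1% and 36.3%). PHO3, PHO5, PHM6 and VTC3 were still lower and PHM8 still higher at 30 min in all 3 strains, whereas PHO84 and SPL2 were called in none of them at that time. All times of a strain share the same 2 arrays before heat. The count in lcb4D/lcb5D at 30 min was 0 without its replicate 2 at that time, and 3 and 2 without replicates 1 and 2 before heat. The arrays at 30 min disagreed, with a gap of more than 1 log2 unit between them for PHM6, PHM8, PHO89 and VTC4.

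PHO84, the high-affinity proton and phosphate symporter of the plasma membrane, dipped and came back within the 30 min. In dpl1D its signal was 11.56 and 11.94 before heat, 10.10 and 10.07 at 5 min, 7.38 and 7.10 at 10 min, 10.28 and 7.88 at 15 min, 10.34 and 9.02 at 20 min, 11.04 and 10.99 at 25 min and 11.72 and 11.37 at 30 min. In lcb4D/lcb5D it was 11.86 and 12 before heat, 10.77 and 10.54 at 5 min, 8.27 and 9.05 at 10 min, 9.25 and 10.26 at 15 min, 10.35 and 11.06 at 20 min, 11.21 and 11.78 at 25 min and 12.27 and 11.56 at 30 min. In JK939a it was 11.69 and 11.24 before heat, 9.47 and 10.36 at 5 min, 8.03 and 7.59 at 10 min, 8.33 and 8.45 at 15 min, 9.99 and 9.68 at 20 min, 10.86 and 11.40 at 25 min and 11.45 and 11.94 at 30 min. The lowest mean stood at 10 min in every strain, and the arrays at 30 min overlapped in range with those before heat in every strain. The 15 min arrays of dpl1D disagreed most, with replicate 1 already high and replicate 2 still low. At 10 min PHO84 was 22.8-fold lower than before heat in dpl1D (log2 difference -4.51 ± 0.51 SE, adjusted p 1.42e-07), 9.63-fold lower in lcb4D/lcb5D (-3.27 ± 0.51, adjusted p 1.55e-05) and 12.6-fold lower in JK939a (-3.66 ± 0.51, adjusted p 4.27e-06). At 30 min the differences from before heat were -0.21 (95% interval -1.26 to 0.85) in dpl1D, -0.02 (-1.08 to 1.04) in lcb4D/lcb5D and 0.23 (-0.83 to 1.28) in JK939a. These intervals still allow a change of about 1 log2 unit either way. The mean heat response was -1.98 ± 0.39 in dpl1D, -1.40 ± 0.39 in lcb4D/lcb5D and -1.67 ± 0.39 in JK939a, and in lcb4D/lcb5D its call was lost without replicate 2 before heat (-1.33, adjusted p 0.0690).

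PHO89, the sodium and phosphate cotransporter, was dimmer and its arrays before heat disagreed. The 12 heated arrays ran from 4.46 through a median of 5.04 to 6.40 in dpl1D, against 5.64 and 7.61 before heat. They ran from 4.26 through 5.07 to 7.25 in lcb4D/lcb5D, against 7.59 and 6.50 before heat, and from 4.67 through 5.14 to 7.26 in JK939a, against 6.06 and 8.36 before heat. Heated and unheated arrays overlapped in each strain. The mean fall was -1.49 ± 0.54 in dpl1D (adjusted p 0.0262), -1.75 ± 0.54 in lcb4D/lcb5D (adjusted p 0.0105) and -1.86 ± 0.54 in JK939a (adjusted p 0.00632). Each of these calls depended on 1 array before heat. Without replicate 2 the fall was -0.50 in dpl1D and -0.71 in JK939a, and without replicate 1 it was -1.20 in lcb4D/lcb5D, with adjusted p of 0.633, 0.461 and 0.237. Without replicate 1 of JK939a before heat, the array that stood apart, the JK939a value was -3.01.

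SPL2 encodes a small protein that turns down low-affinity phosphate uptake, and it fell fast and recovered slowly. The heated arrays ran from 6.13 through a median of 6.97 to 8.11 in dpl1D, against 8.40 and 8.59 before heat. In lcb4D/lcb5D they ran from 6.18 through 7.09 to 7.96, against 8.11 and 8.86 before heat, and in JK939a from 6.38 through 7.19 to 8.96, against 8.21 and 8.62. All 12 heated arrays were below both arrays before heat in the deletion strains, and 10 of 12 were in JK939a. The fall was already called at 5 min, at -1.65 ± 0.47 in dpl1D (adjusted p 0.0167), -1.85 ± 0.47 in lcb4D/lcb5D (adjusted p 0.00736) and -1.52 ± 0.47 in JK939a (adjusted p 0.0303). By 30 min the differences were -0.74 (95% interval -1.71 to 0.23), -0.86 (-1.83 to 0.11) and -0.05 (-1.02 to 0.92) in the same strains. SPL2 read higher on the arrays numbered 2 in 18 of 21 groups, by 0.51 on average, and the part of the RNA differences between the 2 sets in this was not tested. Its mean heat response lost its call without replicate 2 of JK939a before heat (-0.90, adjusted p 0.177) and without replicate 2 of lcb4D/lcb5D before heat (-0.96, adjusted p 0.146).

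**Figure D2:**
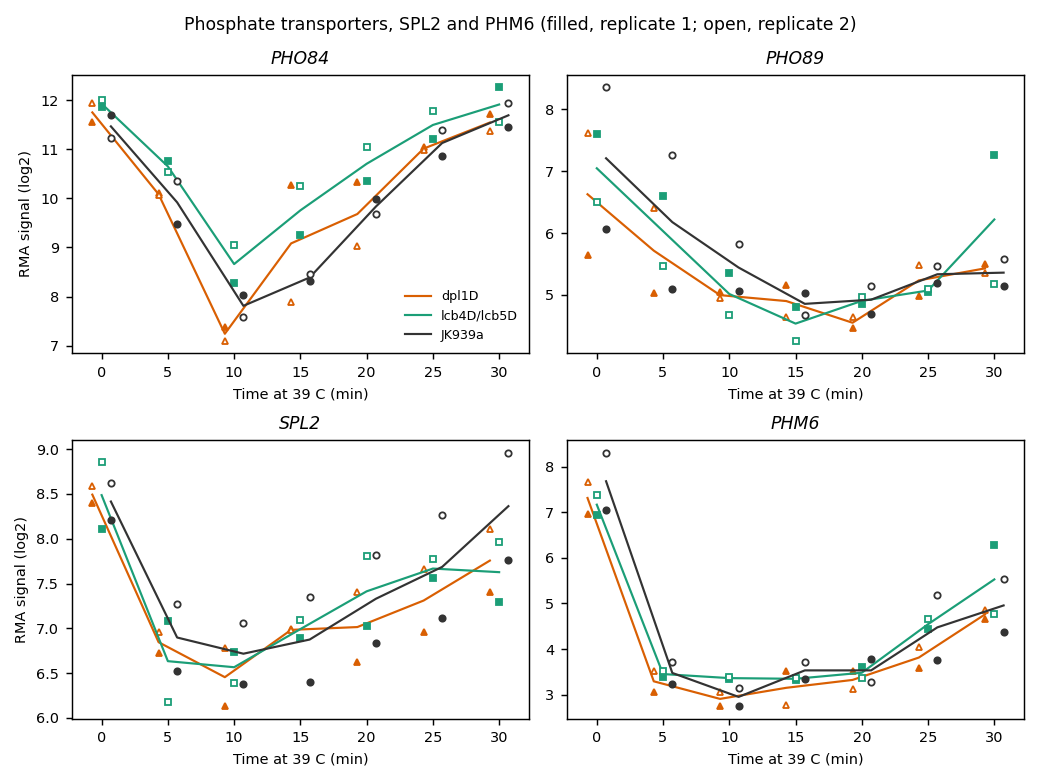
RMA signal (log2) of PHO84, PHO89, SPL2 and PHM6 against time at 39 C (min); lines join the means of dpl1D (triangles), lcb4D/lcb5D (squares) and JK939a (circles), with replicate 1 filled and replicate 2 open, shifted sideways for legibility. PHO84 is lowest at 10 min and regains its starting range by 30 min, while PHM6 drops within 5 min and regains only part of its loss.

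PHM6, a gene of unknown function that is induced by phosphate shortage, fell in each strain and was already at the dim end of the arrays at 5 min. In dpl1D its signal was 6.97 and 7.66 before heat, 3.06 and 3.52 at 5 min, 2.75 and 3.06 at 10 min, 3.52 and 2.78 at 15 min, 3.52 and 3.12 at 20 min, 3.57 and 4.05 at 25 min and 4.67 and 4.86 at 30 min. In lcb4D/lcb5D it was 6.95 and 7.39 before heat, 3.39 and 3.51 at 5 min, 3.34 and 3.38 at 10 min, 3.33 and 3.36 at 15 min, 3.60 and 3.36 at 20 min, 4.43 and 4.66 at 25 min and 6.28 and 4.78 at 30 min. In JK939a it was 7.05 and 8.31 before heat, 3.24 and 3.71 at 5 min, 2.75 and 3.15 at 10 min, 3.34 and 3.72 at 15 min, 3.79 and 3.27 at 20 min, 3.77 and 5.18 at 25 min and 4.37 and 5.54 at 30 min. Every heated array lay below both arrays before heat in each strain, and the arrays at 5 min were close to those at 10 to 20 min. At 5 to 20 min all 8 arrays of dpl1D, all 8 of lcb4D/lcb5D and 5 of 8 of JK939a read no higher than 3.68, the top of the range that DPL1, LCB4 and LCB5 gave in the strains that lack them. Differences of PHM6 that use these times are therefore lower bounds on its fall, and they set no size for a difference between strains. The mean heat response was -3.78 ± 0.35 in dpl1D (adjusted p 2.55e-09), -3.22 ± 0.35 in lcb4D/lcb5D (adjusted p 5.79e-08) and -3.86 ± 0.35 in JK939a (adjusted p 2.49e-09). The difference at 5 min was -4.03 ± 0.46 in dpl1D (adjusted p 5.76e-07), -3.72 ± 0.46 in lcb4D/lcb5D (adjusted p 2.24e-06) and -4.21 ± 0.46 in JK939a (adjusted p 5.82e-07). At its lowest, in dpl1D at 10 min, 12.8% of probe sets read below it, against 73.7% before heat. The plot of transporter, SPL2 and PHM6 signals by time sets the short dip of PHO84 beside this longer one.

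The acid phosphatases PHO5 and PHO3 were called in no strain at 5 min, when PHM6 and SPL2 were called in all 3. PHO5 encodes the repressible acid phosphatase secreted into the cell wall space, and in dpl1D its signal was 8.88 and 10.30 before heat, 8.50 and 9.90 at 5 min, 7.57 and 9.11 at 10 min, 6.49 and 8.23 at 15 min, 6.18 and 7.08 at 20 min, 6.19 and 6.55 at 25 min and 6.27 and 6.62 at 30 min. In lcb4D/lcb5D it was 9.51 and 9.30 before heat, 8.86 and 8.58 at 5 min, 7.74 and 7.29 at 10 min, 6.86 and 6.89 at 15 min, 6.58 and 6.52 at 20 min, 6.30 and 6.35 at 25 min and 7.65 and 6.72 at 30 min. In JK939a it was 8.84 and 10.34 before heat, 8.22 and 10.08 at 5 min, 7.68 and 8.95 at 10 min, 6.35 and 7.55 at 15 min, 6.28 and 7.16 at 20 min, 6.01 and 6.61 at 25 min and 6.09 and 6.87 at 30 min. The means declined at each step until 25 min in every strain and had not returned by 30 min. Replicate 2 read higher than replicate 1 in dpl1D and JK939a at every time, whereas the 2 arrays of lcb4D/lcb5D lay closer together until 25 min. At 25 min PHO5 was 9.35-fold lower than before heat in dpl1D (-3.22 ± 0.67, adjusted p 0.000358), 8.46-fold lower in lcb4D/lcb5D (-3.08 ± 0.67, adjusted p 0.00081) and 9.68-fold lower in JK939a (-3.27 ± 0.67, adjusted p 0.00035). At 5 min the differences were -0.39, -0.68 and -0.44, with adjusted p of 0.812, 0.587 and 0.8. Without replicate 2 before heat the mean heat response was -1.49 in dpl1D and -1.52 in JK939a, and it was no longer called in either. These fits set 1 array before heat against heated arrays of both numbers. Within replicates 1 and 2 the mean response was -2.01 and -2.39 in dpl1D, and -2.06 and -2.47 in JK939a.

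PHO3 lies next to PHO5 in the R64 assembly and encodes a closely related acid phosphatase that is kept on in phosphate-rich medium and repressed by thiamine. Cross-reaction between the probe sets of these similar genes was not tested. Its signal in dpl1D was 9.07 and 9.80 before heat, 8.49 and 9.24 at 5 min, 6.80 and 7.85 at 10 min, 6.09 and 7.10 at 15 min, 5.87 and 5.85 at 20 min, 6.42 and 5.09 at 25 min and 6.70 and 5.70 at 30 min. In lcb4D/lcb5D it was 9.04 and 9.44 before heat, 8.41 and 8.32 at 5 min, 6.70 and 6.46 at 10 min, 6.27 and 6.61 at 15 min, 6.65 and 6.80 at 20 min, 6.71 and 6.80 at 25 min and 7.70 and 7.75 at 30 min. In JK939a it was 9.38 and 9.70 before heat, 8.06 and 9.13 at 5 min, 6.89 and 6.69 at 10 min, 4.94 and 5.38 at 15 min, 5.87 and 5.64 at 20 min, 6.55 and 4.86 at 25 min and 7.10 and 5.65 at 30 min. The lcb4D/lcb5D strain held PHO3 between 6.27 and 7.75 from 10 min on, with close replicates, while dpl1D and JK939a went below 6 on at least 1 array at 20, 25 and 30 min. The mean fall was -2.67 ± 0.39 in dpl1D (adjusted p 3.55e-06), -2.14 ± 0.39 in lcb4D/lcb5D (adjusted p 8.32e-05) and -3.14 ± 0.39 in JK939a (adjusted p 4.06e-07). In JK939a PHO3 was 20.8-fold lower at 15 min than before heat. PHO3 and PHO5 correlated with r = 0.91 over the 21 group means, which share their arrays.

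PHM8 was the only member that rose. Its product is a phosphatase that removes phosphate from lysophosphatidic acid and from nucleoside monophosphates. In dpl1D its signal was 6.19 and 5.70 before heat, 8.51 and 8.47 at 5 min, 9.17 and 9.50 at 10 min, 9.13 and 9.44 at 15 min, 9.03 and 9.62 at 20 min, 8.74 and 8.81 at 25 min and 8.14 and 8.46 at 30 min. In lcb4D/lcb5D it was 6.31 and 6.74 before heat, 8.40 and 8.62 at 5 min, 8.94 and 8.86 at 10 min, 8.79 and 9.26 at 15 min, 9.04 and 9.57 at 20 min, 8.38 and 8.23 at 25 min and 7.51 and 8.65 at 30 min. In JK939a it was 6.21 and 5.96 before heat, 8.39 and 8.87 at 5 min, 9.36 and 9.22 at 10 min, 9.64 and 9.12 at 15 min, 9.31 and 9.41 at 20 min, 8.59 and 8.95 at 25 min and 8.58 and 9.15 at 30 min. Each of the 36 heated arrays lay above both arrays before heat of its strain. The rise at 5 min was 2.55 ± 0.31 in dpl1D (5.86-fold, adjusted p 1.28e-06), 1.99 ± 0.31 in lcb4D/lcb5D (3.96-fold, adjusted p 4.71e-05) and 2.55 ± 0.31 in JK939a (5.85-fold, adjusted p 2.21e-06). Over all heated times the means were 2.98 ± 0.23, 2.16 ± 0.23 and 2.97 ± 0.23 in dpl1D, lcb4D/lcb5D and JK939a. The response of lcb4D/lcb5D minus that of JK939a was -0.81 (95% interval -1.49 to -0.12), and minus that of dpl1D it was -0.82 (-1.50 to -0.13). Neither passed after adjustment over all genes (adjusted p 0.999 in both), though the unadjusted p were 0.0228 and 0.0210.

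The VTC genes fell in each strain and, averaged over the strains, were higher late than in the middle of the heat. VTC4, the catalytic subunit that makes polyphosphate, ran from 7.97 through a median of 8.63 to 9.64 on the heated arrays of dpl1D, against 9.98 and 10.46 before heat. In lcb4D/lcb5D it ran from 7.73 through 8.74 to 9.94, against 10.12 and 10.28 before heat, and in JK939a from 7.70 through 8.83 to 9.87, against 9.80 and 10.44. Heated and unheated arrays did not overlap in the deletion strains, and 10 of 12 heated arrays lay below both others in JK939a. The mean fall was -1.40 ± 0.30 in dpl1D (adjusted p 0.000423), -1.41 ± 0.30 in lcb4D/lcb5D (adjusted p 0.000471) and -1.17 ± 0.30 in JK939a (adjusted p 0.00237), the last with an adjusted p of 0.117 without replicate 2 of JK939a before heat. The second VTC4 probe set, not used in the test, moved the same way, with the lowest mean minus the mean before heat at -1.82 in dpl1D at 20 min, -1.84 in lcb4D/lcb5D at 10 min and -2.27 in JK939a at 15 min.

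VTC3, a scaffold subunit of the same complex, fell by -1.71 ± 0.21 in dpl1D (adjusted p 1.54e-07), -1.67 ± 0.21 in lcb4D/lcb5D (adjusted p 3.49e-07) and -1.83 ± 0.21 in JK939a (adjusted p 7.31e-08). Its heated arrays ran from 6.70 to 8.34 in dpl1D, 6.46 to 8.44 in lcb4D/lcb5D and 6.22 to 8.55 in JK939a, all below the arrays before heat, which lay between 8.71 and 9.21. VTC1, the small membrane subunit, fell by -1.08 ± 0.20, -1.23 ± 0.20 and -1.20 ± 0.20 in the same strains (adjusted p 7.77e-05, 2.12e-05 and 2.39e-05). Its heated arrays ran from 8.99 to 10.44 in dpl1D, 8.58 to 10.06 in lcb4D/lcb5D and 8.87 to 10.70 in JK939a, against 10.65 to 11.01 before heat over the 3 strains, with no overlap inside a strain. VTC1 and VTC4 correlated with r = 0.95 over the 21 group means.

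**Figure D3:**
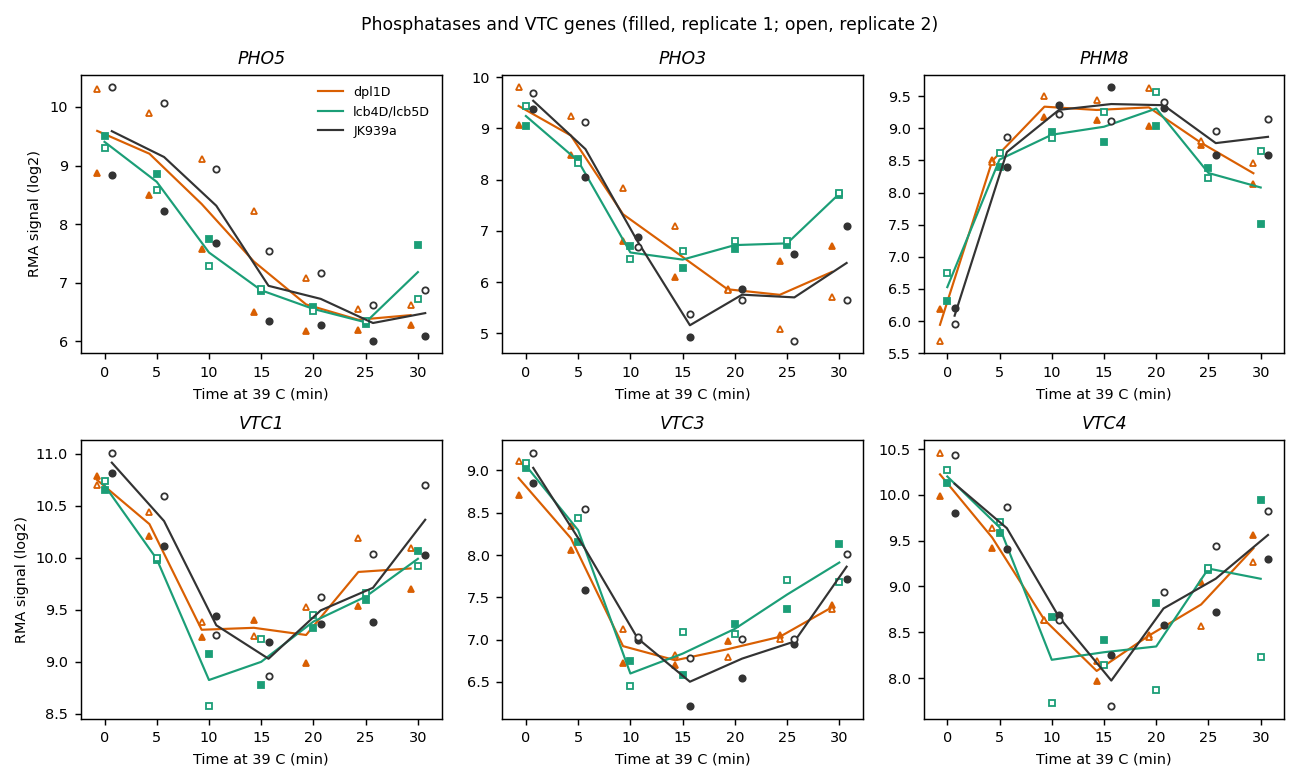
RMA signal (log2) of PHO5, PHO3, PHM8, VTC1, VTC3 and VTC4 against time at 39 C (min), with lines through the means of dpl1D (triangles), lcb4D/lcb5D (squares) and JK939a (circles), replicate 1 filled and replicate 2 open. PHO5 declines to 25 min, PHM8 rises within 5 min, and the VTC genes turn upward after 10 to 20 min.

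Counted by separation of arrays, the 12 heated arrays lay below both arrays before heat for 5 members in dpl1D (SPL2, PHM6, VTC1, VTC3 and VTC4), beside 21.7% of all genes. In lcb4D/lcb5D that held for 7 members, with PHO3 and PHO5 added (18.7% of all genes). In JK939a it held for 4, PHO3, PHM6, VTC1 and VTC3 (15.8% of all genes). PHM8 was the member with all heated arrays above, beside 16%, 13.2% and 15.5% of all genes in dpl1D, lcb4D/lcb5D and JK939a.

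Without replicate 1 of JK939a before heat, the array that stood apart, the mean heat response in JK939a was -3.30 for PHO3, -3.02 for PHO5, -1.44 for PHO84 and -1.31 for SPL2. It was -4.50 for PHM6, 3.09 for PHM8, -1.29 for VTC1, -2.01 for VTC3 and -1.49 for VTC4, and each of these kept its call and sign. At single times the counts in JK939a became 3, 9, 10, 8, 8 and 6 members at 5 to 30 min. PHO84 lost its calls at 5 min (-1.32, adjusted p 0.222) and 20 min (-1.41, adjusted p 0.0884), SPL2 lost its call at 5 min (-1.72, adjusted p 0.0670), and PHO89 gained one at 10 min (-2.91, adjusted p 0.00729). PHO84 was at -3.43 at 10 min and 0.45 (95% interval -0.86 to 1.77) at 30 min, and SPL2 at -0.26 (-1.46 to 0.95) at 30 min. PHO5 was at -1.19 at 5 min and -4.03 at 25 min, PHO3 at -4.54 at 15 min, PHM6 at -4.84 at 5 min and PHM8 at 2.67 at 5 min. All these values set replicate 2 before heat against heated arrays of both numbers. Replicate 2 of PHO5 read higher at every time in JK939a, so the PHO5 values also hold that gap. Within replicates 1 and 2 its mean response was -2.06 and -2.47, against -3.02 in this fit. The mean response of lcb4D/lcb5D minus that of JK939a was -0.93 (-1.76 to -0.10) for PHM8 and 1.16 (-0.24 to 2.56) for PHO3, neither called. Set against replicate 2 alone, all heated JK939a arrays were lower for 7 members, with PHO5, PHO89 and VTC4 added, beside 30% of all genes, and higher for PHM8, beside 20.4%.

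Recovery was measured as the mean of 25 and 30 min minus the mean of 10 and 15 min. Averaged over the 3 strains, 6 members were higher late than in the middle of the heat and 2 were lower, beside 17.9% and 10.1% of all genes. PHO84 rose by 2.97 ± 0.21 (7.86-fold, adjusted p 8.25e-10) and SPL2 by 0.97 ± 0.19 (adjusted p 0.000372). PHM6 was higher by 1.47 ± 0.19 (adjusted p 2.26e-06), a lower bound on its rise, since its arrays in the middle of the heat read as dim as the deleted genes. VTC4, VTC1 and VTC3 rose by 0.89 ± 0.16, 0.77 ± 0.11 and 0.68 ± 0.11 (adjusted p 0.000168, 8.04e-06 and 4.07e-05). PHO5 was lower late than in the middle, by -1.04 ± 0.27 (adjusted p 0.00527), and PHM8 came down by -0.69 ± 0.13 (adjusted p 0.00016). PHO5 was called in no single strain, at -1.45 in dpl1D, -0.44 in lcb4D/lcb5D and -1.23 in JK939a. Its mean at 30 min was above that at 25 min in every strain. PHO3 and PHO89 did not pass, at -0.06 (95% interval -0.50 to 0.37) and 0.48 (-0.11 to 1.08). These 8 calls held in all 42 fits that left out 1 array.

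**Figure D4:**
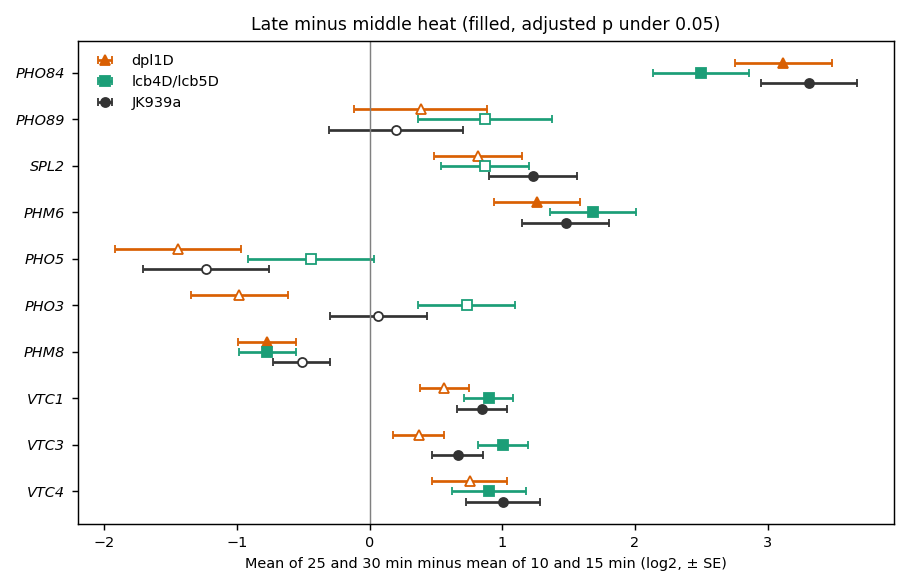
Mean of 25 and 30 min minus mean of 10 and 15 min at 39 C (log2, horizontal axis) for each gene in dpl1D (triangles), lcb4D/lcb5D (squares) and JK939a (circles); bars are standard errors and filled symbols passed an adjusted p under 0.05. PHO84 lies between 2.50 and 3.31 in all 3 strains, and PHO5 and PHM8 lie below 0.

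Within strains the late rise of PHO84 was 3.12 ± 0.36 in dpl1D (adjusted p 2.57e-05), 2.50 ± 0.36 in lcb4D/lcb5D (adjusted p 0.000128) and 3.31 ± 0.36 in JK939a (adjusted p 1.02e-05). PHM6 was the other gene called higher in each strain, at 1.26 ± 0.33, 1.68 ± 0.33 and 1.48 ± 0.33, lower bounds for the same reason. In all, 3 members were called in dpl1D, 6 in lcb4D/lcb5D and 6 in JK939a, beside 7.25%, 12% and 8.38% of all genes. The count in dpl1D was 6 with the replicate number as a block across strains and 7 with blocks within strains. It was 1 without replicate 2 of dpl1D at 15 min or without replicate 2 at 25 min, and 5 without replicate 1 at 15 min. In JK939a it was 3 without replicate 1 at 10 min, replicate 2 at 25 min or replicate 2 at 30 min. The plot of late minus middle heat shows PHO84 above the 8 other members whose heated arrays all read above the deleted genes' range. PHO3 had different signs in dpl1D and lcb4D/lcb5D, at -0.98 (95% interval -1.74 to -0.23) and 0.73 (-0.02 to 1.48), neither called. The dpl1D replicates disagreed, at 0.11 in replicate 1 and -2.08 in replicate 2. Those of JK939a also disagreed, at 0.91 and -0.79, while those of lcb4D/lcb5D were at 0.72 and 0.74.

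Before heat, none of the 10 members was called between strains, and none had an unadjusted p under 0.05 (limma). Without replicate 1 of JK939a before heat none was called either, with unadjusted p of 0.0392 for PHO89 in dpl1D minus JK939a (-1.73) and 0.0418 for PHM6 in lcb4D/lcb5D minus JK939a (-1.15). Calls over all genes came to 0.0177% for dpl1D against JK939a, 0.106% for lcb4D/lcb5D against JK939a and 0.141% for lcb4D/lcb5D against dpl1D. The members' differences ran from -0.58 for PHO89 to 0.28 for PHO84 in dpl1D minus JK939a, from -0.51 for PHM6 to 0.46 for PHO84 in lcb4D/lcb5D minus JK939a, and from -0.20 for PHO3 to 0.59 for PHM8 in lcb4D/lcb5D minus dpl1D. With a median standard error of 0.31 for a strain difference at 1 time over all genes, differences of this size were not detectable. Among the members this error ran from 0.26 for VTC1 to 0.71 for PHO89, and it was 0.67 for PHO5 and 0.51 for PHO84.

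Averaged over all 7 times, lcb4D/lcb5D held more PHO84 transcript than JK939a, by 0.70 ± 0.19 (1.62-fold, adjusted p 0.0143). PHO3 was the other member called, higher by 0.56 ± 0.20 (adjusted p 0.0453), but that call was lost in 22 of the 42 fits without 1 array and its mean was higher at only 4 of 7 times. These 2 of 10 members stand beside 19.5% of all genes called, 12.7% higher and 6.77% lower, so the count is close to the background. Centring on array medians turned the share of higher calls over all genes to 42.8%, cyclic loess to 54.4% and hybridisation-control centring to 7.14%, against 65.3% as deposited. At an unadjusted p under 0.05 the count was 4, with PHM8 and VTC1 added, both lower. VTC1 stood at -0.24 ± 0.10 (adjusted p 0.086) and was called with the replicate number as a block (adjusted p 0.0392 across strains and 0.0358 within strains). PHM8 stood at -0.25 ± 0.12 (adjusted p 0.139). Every comparison over all times counts the 14 arrays of a strain as separate, though same-numbered arrays were read as paired. These p-values therefore do not measure the spread between cultures.

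PHO84 ran from 8.27 through a median of 10.9 to 12.3 on the 14 arrays of lcb4D/lcb5D, against 7.59 through 10.2 to 11.9 in JK939a. Its mean was higher in lcb4D/lcb5D at all 7 times, and both arrays lay above both JK939a arrays at 5 of them, a separation at 5 or more times shown by 6.68% of all genes. The difference was 0.46 before heat, then 0.73, 0.85, 1.37, 0.87, 0.37 and 0.22 at 5 to 30 min. No single time passed on its own, with an adjusted p of 0.582 at 15 min. PHO84 kept its call against JK939a in each of the 42 fits without 1 array, at 0.62 to 0.77. Without replicate 1 of JK939a before heat it was 0.73. Under hybridisation-control centring it was 0.58, with an adjusted p of 0.597.

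The mean of PHO3 was higher in lcb4D/lcb5D than in JK939a from 15 min on, with both arrays above both others at each of these times. The difference at 30 min was 1.35 ± 0.52 (adjusted p 0.364). In the fits without 1 array that lost the call over all times the adjusted p lay between 0.0503 and 0.101, among them the fit without replicate 1 of JK939a before heat (0.54, adjusted p 0.0725). It was also lost with median centring (adjusted p 0.0787), cyclic loess (0.077) and array weights (0.0548).

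**Figure D5:**
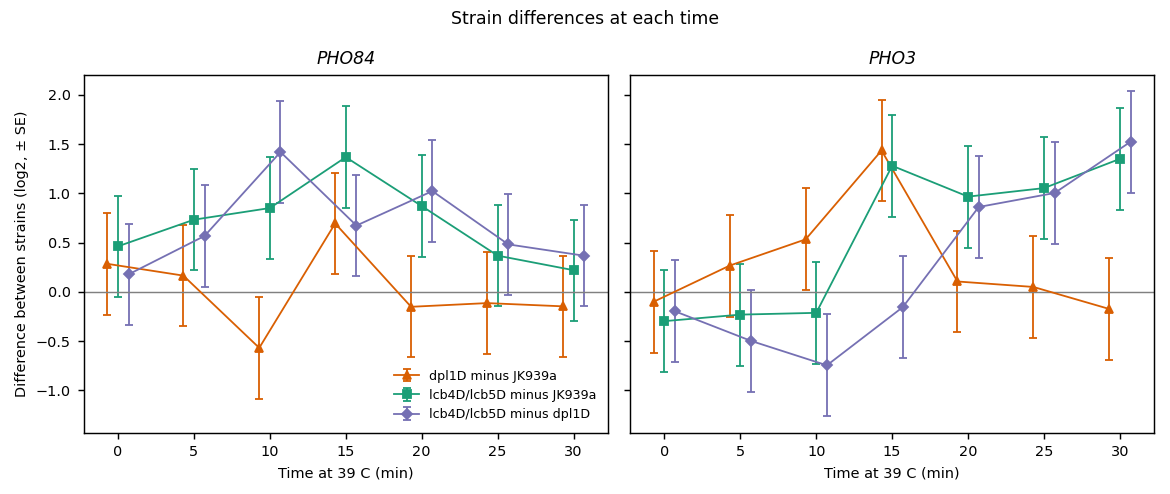
Difference between strains (log2, with standard errors as bars) of PHO84 and PHO3 at each time at 39 C (min): dpl1D minus JK939a (triangles), lcb4D/lcb5D minus JK939a (squares) and lcb4D/lcb5D minus dpl1D (diamonds). For PHO84 both lcb4D/lcb5D series stay above 0 at all 7 times; for PHO3 the lcb4D/lcb5D minus JK939a series is above 0 from 15 min on.

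Against dpl1D, lcb4D/lcb5D had 1 member called, PHO84, higher by 0.67 ± 0.19 (1.59-fold, adjusted p 0.0235), beside 12.8% of all genes called, 8.75% higher and 4.07% lower. Its mean was higher at all 7 times, and the arrays did not overlap at 4 of them. PHO84 spanned 7.10 through a median of 10.3 to 11.9 on the 14 dpl1D arrays. The call was lost without replicate 2 of dpl1D at 20 min and without replicate 2 of lcb4D/lcb5D at 10, 15, 20 or 25 min, with adjusted p between 0.0519 and 0.0567. The plot of strain differences shows both comparisons, which share the lcb4D/lcb5D arrays. Controls of RNA make-up also moved with strain. The 3' minus 5' SRB4 difference averaged 1.51 in lcb4D/lcb5D, 0.988 in dpl1D and 1.22 in JK939a, and the 25S control averaged 10.5, 12.2 and 11.5 in the same strains, and their part in the strain differences was not tested. PHO84 itself read lower on the arrays numbered 2 by 0.05 on average, higher in 10 of 21 groups.

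Between dpl1D and JK939a no member was called over all times and none had an unadjusted p under 0.05 (limma), beside 0.0177% of all genes called, which is DPL1 alone. The difference was 0.02 for PHO84 (95% interval -0.38 to 0.42), 0.30 for PHO3 (-0.10 to 0.70) and -0.26 for PHO89 (-0.82 to 0.29). For PHM6 it was -0.29 (-0.65 to 0.07), which sets no size, since most of its arrays at 5 to 20 min read as dim as the deleted genes. The differences for VTC1, VTC3 and VTC4 were -0.07 (-0.28 to 0.14), -0.02 (-0.23 to 0.19) and -0.09 (-0.40 to 0.22). For the VTC genes a shift beyond about 0.4 log2 units thus lay outside the intervals.

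The course of the heat response was also compared between strains, with a joint test over the 6 heated times. No member passed in dpl1D against JK939a, lcb4D/lcb5D against JK939a or lcb4D/lcb5D against dpl1D, beside 0%, 0.0177% and 0.0354% of all genes (limma). At an unadjusted p under 0.05 the counts were 0, 0 and 1, the last being PHO3 (p 0.0318). The mean response of PHO3 in lcb4D/lcb5D minus JK939a was 1.00 with a 95% interval from -0.15 to 2.15.

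Among 9 other phosphate transporters and their helpers, the mean heat response was higher for 2 and lower for 4 in dpl1D, higher for 2 and lower for 3 in lcb4D/lcb5D, and higher for 3 and lower for 3 in JK939a. Over all genes 47.2%, 44.3% and 46.3% were called in dpl1D, lcb4D/lcb5D and JK939a, the background for this list and those below. PHO90, a low-affinity plasma membrane transporter, fell by -2.62 ± 0.42, -2.04 ± 0.42 and -2.33 ± 0.42 in those strains, and SND3, also known as PHO88 and active in protein targeting to the endoplasmic reticulum, by -1.08 ± 0.20, -1.36 ± 0.20 and -1.26 ± 0.20. GIT1, the permease for glycerophosphoinositol, rose by 0.73 ± 0.23, 0.89 ± 0.23 and 0.83 ± 0.23. PIC2, a carrier of the mitochondrial inner membrane, rose by 2.50 ± 0.27, 2.34 ± 0.27 and 1.72 ± 0.27. PHO90 was also called higher late than in the middle of the heat (1.11 ± 0.22, adjusted p 0.00039), as were 17.9% of all genes. It was called higher in lcb4D/lcb5D than in JK939a over all times (0.64 ± 0.21, adjusted p 0.0296), as were 12.7% of all genes. The list's median heat response was -0.50, -0.59 and -0.44 in dpl1D, lcb4D/lcb5D and JK939a.

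Of 6 other genes of polyphosphate synthesis and breakdown, 3 fell in each strain and the other three did not pass. VTC2, the scaffold that can take the place of VTC3, fell by -1.37 ± 0.25 in dpl1D, -1.31 ± 0.25 in lcb4D/lcb5D and -1.26 ± 0.25 in JK939a. PPN2, an endopolyphosphatase, fell by -1.39 ± 0.22, -1.51 ± 0.22 and -1.42 ± 0.22, and PPX1, an exopolyphosphatase, by -0.57 ± 0.19, -0.52 ± 0.19 and -0.51 ± 0.19. Genes for making and for breaking down polyphosphate were thus both among those lowered. VTC5, an accessory subunit, did not pass, at -0.40 ± 0.38, 0.08 ± 0.38 and -0.52 ± 0.38. In late minus middle heat, where VTC1, VTC3 and VTC4 rose, VTC2 stood at -0.33 ± 0.13 (adjusted p 0.0659) and PPN2 at 0.25 ± 0.12 (adjusted p 0.112).

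The 13 genes of PHO pathway signalling were mostly not called. In dpl1D 1 rose and 2 fell, in lcb4D/lcb5D 1 rose and 1 fell, and in JK939a 1 rose and 3 fell. PHO81, the kinase inhibitor, fell in each strain, by -1.24 ± 0.24, -1.04 ± 0.24 and -1.01 ± 0.24, and was higher late than in the middle of the heat by 0.72 ± 0.13 (adjusted p 0.000116). PHO4, the transcription factor, fell in dpl1D (-1.04 ± 0.28) and JK939a (-1.05 ± 0.28) and stood at -0.53 ± 0.28 in lcb4D/lcb5D (adjusted p 0.123). ARG82, an inositol polyphosphate kinase, rose in dpl1D (0.66 ± 0.21) and JK939a (0.86 ± 0.21) and stood at 0.14 ± 0.21 in lcb4D/lcb5D. In lcb4D/lcb5D the gene that rose was PHO23, a subunit of a histone deacetylase. No gene of this list differed in mean heat response between strains after adjustment. PCL7, a cyclin partner of Pho85, did not pass in any strain.

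Only 3 of 5 other phosphatase genes were measured by a probe set of their own. DIA3, whose product resembles the acid phosphatases, rose by 2.30 ± 0.27 in dpl1D, 2.50 ± 0.27 in lcb4D/lcb5D and 2.49 ± 0.27 in JK939a, opposite in sign to PHO5 and PHO3. PHO8, the vacuolar alkaline phosphatase, was not called, at 0.03 ± 0.41, 0.10 ± 0.41 and -0.22 ± 0.41. PHO13, a phosphatase of metabolite repair, stood at -0.30 ± 0.23 in dpl1D and -0.55 ± 0.23 in lcb4D/lcb5D and was called lower in JK939a (-0.68 ± 0.23), though the response did not differ between strains after adjustment.

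Of 4 other genes tied to phosphate starvation, 3 rose and 1 fell in dpl1D, 1 rose and 1 fell in lcb4D/lcb5D, and 3 rose and 1 fell in JK939a. PHM7, of unknown function, rose by 5.67 ± 0.30, 5.09 ± 0.30 and 5.27 ± 0.30. GPP2, a glycerol-3-phosphate phosphatase of the osmotic and heat response, rose in dpl1D (1.97 ± 0.37) and JK939a (1.71 ± 0.37) and stood at 0.45 ± 0.37 in lcb4D/lcb5D, a difference between strains that did not pass after adjustment. The gene that fell was CTF19, whose product is a kinetochore subunit. GDE1, a glycerophosphocholine phosphodiesterase, was higher in lcb4D/lcb5D than in JK939a over all times by 0.72 ± 0.09 (adjusted p 1.29e-05) and higher than in dpl1D by 0.70 ± 0.09 (adjusted p 1.69e-05), beside 0.70 and 0.67 for PHO84 in the same comparisons.

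PHO3 was set beside 14 measured thiamine genes of a list of 22. Of these, 3 rose and 4 fell in dpl1D, 4 rose and 2 fell in lcb4D/lcb5D, and 4 rose and 2 fell in JK939a. These counts are close to the background of 47.2%, 44.3% and 46.3% of all genes called in the same strains. THI20 and THI2 rose and PDC2 and THI80 fell in all 3 strains, so the thiamine genes did not share the single direction of PHO3. THI20, of the thiamine salvage and synthesis path, was also higher in lcb4D/lcb5D than in JK939a over all times, by 0.28 ± 0.09 (adjusted p 0.0300). PHM8 was set beside 12 general stress genes driven by Msn2 and Msn4. All 12 rose in each strain, with medians of 4.99 in dpl1D, 3.89 in lcb4D/lcb5D and 4.36 in JK939a. Among them was CTT1, the cytosolic catalase, at 6.03 ± 0.27, 4.70 ± 0.27 and 4.85 ± 0.27. Over all genes 20.6%, 19.1% and 21.8% were called higher in the same strains. The list was drawn from known stress genes with earlier results known, and control of PHM8 by Msn2 and Msn4 was not tested.

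The genes most like each member over the 21 group means, by Pearson correlation, were mostly from outside phosphate metabolism. PHO84 was closest to GPN3 (r = 0.95), PHO89 to NSL1 (0.96), PHM6 to FAL1 (0.97) and PHO3 to ALA1 (0.98). PHO5 was closest to TEF4 (0.99), VTC3 to TIF5 (0.98) and VTC4 to NEW1 (0.95). SPL2 was closest to RAI1 (0.92), with PHO81 second (0.91), and VTC1 was closest to SND3 (0.97). PHM8 was closest to SPI1 (0.99), with HSP104 second (0.98). Between members, PHO84 correlated with SPL2 at 0.82 and with PHO5 at -0.03, and PHM6 correlated with PHM8 at -0.94. All these values share the same arrays and the same heat course and are descriptions.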

How the data were processed

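Total RNA of 3 yeast strains was measured on 42 single-colour Affymetrix arrays, 2 for each of 21 groups of strain and time, grouped by the labels. The authors deposited RMA values, per the submitters' processing notes. RMA in general corrects background, quantile-normalises and summarises probes. They were read as log2 values, per the deposited range of 1.36 to 14.7. The log base and RMA version are not given in the sources used here. Gene coordinates are not printed, because no genome build is named for the probes. The RefSeq table (R64) served for names and for which genes are neighbours, and sequences are not used here. Of 9335 probe sets, 60 were controls, 6504 had 1 gene symbol, 328 several and 2443 none listed. Updating symbols through RefSeq changed 0. Each of the 5656 genes took its probe set of highest mean over all arrays, and 315 genes had more than 1.

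With limma 3.58.1 (R 4.3.3), 1 mean per group was estimated, leaving 21 residual degrees of freedom, and variances were moderated by empirical Bayes. All tests were two-sided. The p-values were adjusted over all genes by Benjamini-Hochberg, and calls were made under 0.05. Errors are standard errors of the fit unless marked SD. The fit was tested on simulated data in which arrays varied independently, so that test did not cover same-numbered arrays that deviate together. Array number limits the precision. Quantile normalisation hides a shift of all transcripts together.

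Members and lists were chosen with earlier results of these data known. Genes outside the members were named by a rule: the deleted genes, up to 4 genes per list of smallest p over the heat terms, and the genes most like each member. MF(ALPHA)1 and STE2 are named as mating markers, and PHO23, a count of 1, after its value was seen. Alternatives were median centring, cyclic loess, centring on 18 hybridisation controls, dropping the dimmest 25% of genes, a threshold of 0.01, trend and robust moderation, array weights, the mean of all probe sets, the replicate number as a block, and leaving out each array. Same-numbered arrays deviated from their group means together in 210 of 210 combinations, with r above 0.1 (lowest 0.130, median 0.524 over non-control probe sets; over tested genes 209 of 210 passed that mark, lowest 0.0669), so the numbers were read as pairing the samples.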

Additional observations from a re-analysis of the deposited data

How the results depend on the processing

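Hybridisation-control centring, which put the median gene at 0.26 in the JK939a heat response, against -0.02 as deposited, and moved the share of higher calls there to 61.4% against 47.0%, cut the members called in the mean heat response to 5 in dpl1D, 4 in lcb4D/lcb5D and 6 in JK939a, and the strain differences over all times to 0 for lcb4D/lcb5D against JK939a and 0 against dpl1D. Late minus middle heat fell to 1, 2 and 3 members in dpl1D, lcb4D/lcb5D and JK939a with it. The counts at single times that moved most fell to between 1 and 5. Those at 15 min in lcb4D/lcb5D and JK939a were not among them. PHM6, PHO5, PHO3 and PHM8 kept their heat response calls under it in all strains. An adjusted p of 0.01 left 0 and 0 members in the 2 lcb4D/lcb5D comparisons, 3 in JK939a and 1 in dpl1D for late minus middle heat, and 2 in lcb4D/lcb5D at 30 min; cyclic loess and array weights each left 1 against JK939a. At 5 min in lcb4D/lcb5D both of these gave 5 members against 3, and cyclic loess gave 5 in dpl1D for late minus middle heat. Leaving out 1 array moved the heat response counts over 8 to 10 members in dpl1D, 8 to 10 in lcb4D/lcb5D and 6 to 10 in JK939a, and the strain counts over 1 to 3 for lcb4D/lcb5D against JK939a and 0 to 1 against dpl1D. VTC1 (-0.31) and PHM8 (-0.32) were called against JK939a with median centring. The replicate number as a block changed 1 named call, that of VTC1 over all times in lcb4D/lcb5D minus JK939a (-0.24), besides the counts given above for late heat in dpl1D (6 and 7) and for 5 min in lcb4D/lcb5D (5 and 6).

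Signs that turned belonged to differences that were never called. Over all times in dpl1D minus JK939a, PHO5 was -0.15 and PHO84 -0.19 with hybridisation-control centring, and leaving out 1 array gave -0.071 to 0.19 for PHO5, -0.15 to 0.19 for PHO84 and -0.089 to 0.050 for VTC3. In lcb4D/lcb5D minus JK939a, PHM6 was -0.030, -0.0024 and -0.081 with median, loess and hybridisation-control centring, and leaving out 1 array gave -0.067 to 0.15 for PHM6, -0.23 to 0.10 for PHO89 and -0.24 to 0.0012 for VTC4. In lcb4D/lcb5D minus dpl1D, VTC4 was 0.018 with loess, 0.061 with hybridisation-control centring and 0.12 with the mean of its probe sets, and -0.15 to 0.094 without 1 array. Late minus middle heat of PHO3 was 0.18 with hybridisation-control centring and -0.20 to 0.077 without 1 array. The causes were not tested. Leaving out the dimmest 25% removed PHM6 and changed no other call of a member. Precision is limited by 2 arrays a group, and PHM6 read near the dim end of the arrays. PHO89 at its lowest, in lcb4D/lcb5D at 15 min, had 35.2% of probe sets below it.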
